A study of Mus musculus with 6 samples.

Results

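The genes described here are the mouse carriers of sugars, amino acids, small peptides and related organic solutes in the solute carrier families Slc1, Slc2, Slc3, Slc5, Slc6, Slc7, Slc15, Slc16, Slc36, Slc38 and Slc43. They were chosen by symbol: every protein-coding gene of the count table whose symbol is one of these families followed by a member number was taken. This gave 107 of 31227 genes, which are all 107 such genes of the GENCODE vM21 annotation. Another 4 genes carry a symbol of this form with the ending os and were left out, among them Slc7a6os, a separate protein-coding gene. RNA was sequenced from mouse intestinal organoids, which are cultures of intestinal epithelium kept as small budding structures in a gel. There were 3 groups with 2 libraries each, namely wild type (WT), Smad4 knockout (Smad4 KO) and Smad4 knockout treated with 0.5 nM TGFb. All groups were grown with EGF at 50 ng/ml, Noggin at 100 ng/ml and R-spondin1 at 500 ng/ml, and all titles give a time of 48 h. The protocol also gives 2 days of feeding with TGFb-containing medium for the treated organoids. Whether these 2 days are the 48 h of the titles or follow them is not clear, so culture time may differ between groups. The labels name neither the way Smad4 was inactivated nor the age or strain of the animals, and WT organoids given TGFb were not analysed here. Nor do they state whether replicates are separate cultures or animals, and each p-value therefore measures the spread between these libraries alone, which may be technical.

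An absorptive intestinal cell takes up the products of digestion through carriers in its brush border and releases them through other carriers on the blood side. Many brush border carriers use the sodium gradient across the membrane, and the peptide carrier uses protons. Sugars enter by the sodium-glucose cotransporter Slc5a1 (SGLT1) and the fructose carrier Slc2a5 (GLUT5) and leave by Slc2a2 (GLUT2). Neutral amino acids enter by Slc6a19, proline by Slc6a20a, cystine and basic amino acids by the pair Slc3a1 and Slc7a9, and short peptides by Slc15a1 (PEPT1). Dividing cells rely on a different set for growth, including the glutamine carrier Slc1a5 (ASCT2), the leucine carrier Slc7a5 (LAT1), the arginine carrier Slc7a1 and the neutral amino acid carriers Slc38a1 and Slc38a2. Smad4 is the common partner of receptor-activated SMAD proteins in the responses to TGF-β and to bone morphogenetic proteins.

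The libraries held 40549534 to 50699356 units of the authors' estimated counts. Smad4 stood at 99.4 and 109 CPM (counts scaled by TMM to a common library size) in WT, at 21.7 and 23.1 CPM in untreated Smad4 KO and at 25.2 and 29.5 CPM in treated Smad4 KO, so all 4 libraries labelled Smad4 KO lay below WT. Replicates correlated across genes at 0.9921 to 0.993 on log2(CPM + 1), and libraries of different groups at 0.9552 to 0.981. All 8 epithelial markers were present in every library, with a summed level of 7100 to 14200 CPM. Of 6 fibroblast markers Col1a2, Col3a1 and Dcn were at 0 in every library, and the list summed to 3.33 to 16.6 CPM, nearly all of it Vim. The endothelial genes Cdh5 and Kdr and the glial gene Sox10 were at 0 throughout, and the leukocyte gene Ptprc did not exceed 0.116 CPM. Other members of these lists were detected at low levels, such as the leukocyte gene Cd68 at 2.39 to 4.52 CPM. The leukocyte list summed to 3.62 to 6.5 CPM, the endothelial list to 0.229 to 0.764 CPM and the neuron and glia list to 0.865 to 2.5 CPM. Mitochondrial genes took 4.57 to 4.7% of units in WT and Smad4 KO and 3.87 to 3.92% in the treated libraries, and the part this plays in the results was not tested.

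Of the 107 carriers, 91 were above 0 in at least 1 library, 16 were at 0 in all 6, and 76 passed the filter on low counts and were tested. The carriers together took 0.451 and 0.445% of units in WT, 0.485 and 0.482% in Smad4 KO and 0.398 and 0.399% in treated Smad4 KO. Levels of different genes were compared per kilobase (kb) of exon, since longer transcripts give more fragments. In WT the glucose carrier Slc5a1 was the most abundant carrier at a mean of 139 CPM per kb, followed by Slc1a5 at 75.8, the lactate carriers Slc16a1 at 51.8 and Slc16a3 at 48.6, Slc1a4 at 43.2 and Slc2a1 at 42.9 CPM per kb. In Smad4 KO Slc5a1 stood at 227 CPM per kb, and the next places were taken by the taurine carrier Slc6a6 at 59.4, Slc3a1 at 56.3, Slc2a5 at 53.6 and Slc1a5 at 47.7 CPM per kb. With TGFb the order began with Slc5a1 at 111, Slc6a6 at 58.2, Slc38a2 at 49.9 and Slc7a7 at 47.5 CPM per kb. So a sodium-coupled glucose carrier led in all groups, while the carriers behind it changed places between the groups. The order behind Slc5a1 depends on the length used. Slc38a1, at a mean of 513 CPM in WT, has 17236 bases of exon, which gives 29.8 CPM per kb, but 7266 bases in its longest coding transcript. For Slc38a2 these lengths are 8838 and 4660 bases.

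Smad4 KO was first compared with WT, which sets the genotypes side by side without added TGFb. Among carriers of the brush border, Slc6a19 was 6.48-fold and Slc6a20a 4.03-fold higher in Smad4 KO, and Slc2a5, Slc5a1, Slc3a1, Slc7a9 and Slc15a1 were higher as well. The glutamate carrier Slc1a1, also known from the intestinal brush border, was lower. Among the carriers named above for dividing cells, Slc38a1 was 3.0-fold lower, Slc1a5, Slc7a5 and Slc7a1 were lower too, and Slc38a2 was higher. Of the 76 carriers tested, 21 passed as higher (edgeR adjusted p under 0.05), 14 passed as lower and 41 did not pass. That is 46.1% called, where 30.3% of the 15503 genes tested were called, 16.9% as higher and 13.4% as lower. Of all genes called 55.7% were higher, but 46% under upper-quartile scaling (2261 higher and 2655 lower), under which 20 carriers were higher and 15 lower. The median log2 fold change of the tested carriers was 0.22, against -0.02 over all genes. More than 2-fold differences made up 15 of the calls higher and 7 of the calls lower. Because RNA came from whole organoids, fewer cells of a type and less RNA per cell cannot be told apart. Enterocyte markers other than carriers moved in the same comparison: 13 of 15 rose and 2, Dpp4 and Anpep, fell, and their summed level went from 5120 to 5180 CPM in WT to 15900 to 16000 CPM in Smad4 KO. All 8 crypt base and proliferation markers fell, from a summed 6760 to 6800 CPM to 3940 to 3950 CPM. The part of either shift in the carrier results was not tested.

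**Figure D1:**
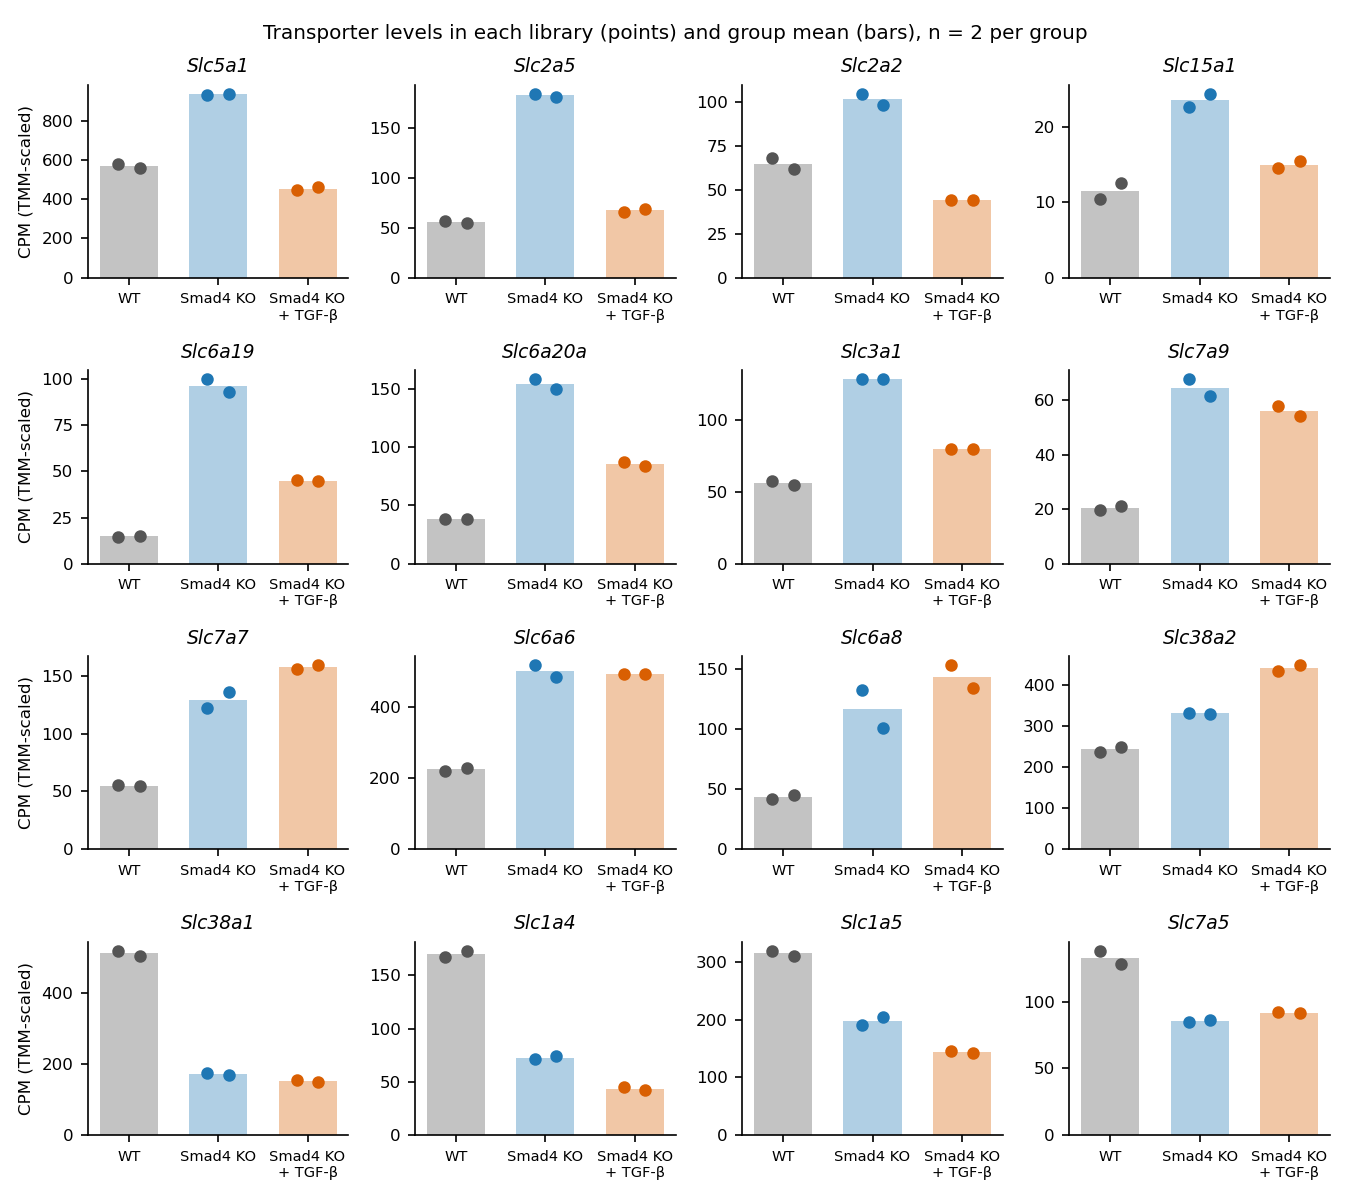
TMM-scaled CPM of 16 carriers in each library, with WT in grey, Smad4 KO in blue and Smad4 KO with TGFb in orange; points are libraries, bars are group means (n = 2), and each panel has its own axis from 0. Slc6a19 stands at 14.6 and 15.2 CPM in WT and at 100 and 93 CPM in Smad4 KO, while Slc38a1 goes the other way, from 520 and 506 CPM to 174 and 169 CPM.

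Among sugar carriers, Slc5a1, the cotransporter that brings glucose and galactose across the brush border with sodium, was at 580 and 560 CPM in WT and 930 and 937 CPM in Smad4 KO. The fructose carrier Slc2a5 was at 56.5 and 54.8 CPM in WT and 184 and 181 CPM in Smad4 KO. Slc2a2, which lets sugars out on the blood side, was at 68.4 and 61.9 CPM and at 105 and 98.7 CPM in the same order. In all 3 genes both Smad4 KO libraries lay above both WT libraries. The rise was 1.64-fold for Slc5a1 (log2 fold change 0.71 ± 0.03 SE, adjusted p = 1.73e-05), 3.28-fold for Slc2a5 (1.71 ± 0.06, adjusted p = 5.91e-06) and 1.56-fold for Slc2a2 (0.64 ± 0.07, adjusted p = 0.00116). Slc2a5 lies on chromosome 4 at 150119283 to 150144169 (GRCm38, plus strand), just before Slc2a7 (150148972 to 150168482), a close relative that was at 3.34 and 3.35 CPM in WT and 3.69 and 3.94 CPM in Smad4 KO (adjusted p = 0.74). Slc5a4b, a relative of Slc5a1, rose from 10.8 and 9.79 CPM to 34.5 and 36.1 CPM (1.78 ± 0.1, adjusted p = 5.97e-05). The housekeeping glucose carrier Slc2a1 (GLUT1) was lower by a small amount, at 155 and 146 CPM in WT and 128 and 129 CPM in Smad4 KO (-0.23 ± 0.06, adjusted p = 0.0237). Slc2a9, which carries urate, was higher, at 11 and 10.1 CPM against 17.7 and 14.8 CPM (0.62 ± 0.14, adjusted p = 0.0167). Slc5a9, a sodium-coupled carrier of mannose and fructose, did not pass, at 19.8 and 17 CPM against 21.1 and 23 CPM (adjusted p = 0.146). The neuronal type glucose carrier Slc2a3 was at 0 in every library. By role, 2 of 5 tested sodium-coupled sugar carriers and 3 of 9 tested facilitated ones passed as higher, and 1, Slc2a1, passed as lower. That is 40 and 44.4% called in either direction, where 30.3% of all genes tested were called.

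Related sodium-coupled carriers of other organic solutes were measured in the same family. Slc5a6, which takes up the vitamins biotin and pantothenate, was at 14.5 and 11.1 CPM in WT and 31.3 and 30.1 CPM in Smad4 KO. Slc5a8, a carrier of short monocarboxylates such as butyrate and lactate, was at 1.55 and 1.55 CPM in WT and 5.09 and 5.7 CPM in Smad4 KO. Neither gene had overlapping groups, and the log2 fold changes were 1.26 ± 0.14 for Slc5a6 (adjusted p = 0.00113) and 1.8 ± 0.24 for Slc5a8 (adjusted p = 0.00227). Of the 50-base stretches of Slc5a6 transcripts 13.6% also occur in Gm6157, so its level is less certain. The inositol carriers Slc5a3, Slc5a11 and Slc2a13 did not pass in this comparison. Of the 3 tested peptide carriers 1 passed, which is 33.3%, near the 30.3% called over all genes tested. This was Slc15a1, the proton-coupled carrier of short peptides in the brush border. It rose from 10.5 and 12.5 CPM to 22.6 and 24.4 CPM, which is 2.04-fold (1.03 ± 0.13, adjusted p = 0.00177). Slc15a2, a relative best known from the kidney, was at 7.93 and 6.02 CPM against 10.2 and 9.47 CPM (adjusted p = 0.0731). The lysosomal carrier Slc15a4 was at 20 and 22.1 CPM against 15.4 and 17.5 CPM (adjusted p = 0.07).

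Slc6a19, Slc6a20a and Slc6a20b showed the largest rises among carriers with at least 5 CPM in a group. Slc6a19, the main sodium-coupled carrier of neutral amino acids in the small intestine, was at 14.6 and 15.2 CPM in WT and 100 and 93 CPM in Smad4 KO. The proline carrier Slc6a20a was at 38.4 and 37.8 CPM in WT and 158 and 150 CPM in Smad4 KO, and its neighbour Slc6a20b at 2.27 and 1.64 CPM and at 7.56 and 7.61 CPM. Every Smad4 KO value of these 3 genes was more than 3 times every WT value. The log2 fold changes were 2.7 ± 0.08 for Slc6a19 (adjusted p = 3.34e-06), 2.01 ± 0.06 for Slc6a20a (adjusted p = 4.25e-06) and 1.95 ± 0.25 for Slc6a20b (adjusted p = 0.0018). Slc6a20a and Slc6a20b are neighbours on chromosome 9 (123634770 to 123678885 and 123590800 to 123632565, both on the minus strand, GRCm38), and 15.3% of the 50-base stretches of Slc6a20a transcripts also occur in Slc6a20b, so reads may have been divided between them. Of the Slc6a20b exons 21.1% lie opposite Sacm1l, which was at 90.5 and 85.5 CPM in WT and 116 and 104 CPM in Smad4 KO (adjusted p = 0.0169). Whether strand was used to part these 2 genes is not known. Slc6a19 lies on chromosome 13 at 73679745 to 73704865 on the minus strand.

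Slc3a1 and Slc7a9 encode the heavy and the light chain of the brush border exchanger of cystine and basic amino acids. Slc3a1 was at 57.3 and 54.5 CPM in WT and at 128 CPM in both Smad4 KO libraries. Slc7a9 was at 19.8 and 21.3 CPM in WT and 67.7 and 61.7 CPM in Smad4 KO. Both partners were thus higher in each Smad4 KO library, by 2.29-fold for Slc3a1 (1.19 ± 0.06, adjusted p = 2.67e-05) and by 3.15-fold for Slc7a9 (1.65 ± 0.09, adjusted p = 4.39e-05). Per kb of exon Slc7a9 stood at 0.293 and 0.332 times Slc3a1 in WT and at 0.45 and 0.409 times in Smad4 KO. Of the Slc3a1 exons, 26.5% lie opposite Prepl, which was at 58.8 to 63 CPM in WT and 62.2 to 69.9 CPM in Smad4 KO and did not pass (adjusted p = 0.327).

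The other heavy chain, Slc3a2, pairs with several light chains that include Slc7a5, Slc7a6, Slc7a7, Slc7a8 and Slc7a11. Slc3a2 itself differed little, at 122 and 132 CPM in WT and 146 and 147 CPM in Smad4 KO (0.21 ± 0.05, adjusted p = 0.0297). Slc7a7, which releases basic amino acids on the blood side of absorptive cells, was at 55.3 and 54.5 CPM in WT and 122 and 136 CPM in Smad4 KO (1.23 ± 0.07, adjusted p = 5e-05). Slc7a8, a carrier of neutral amino acids on the same side, was at 25.4 and 21.6 CPM and at 49.2 and 44.8 CPM (1.0 ± 0.11, adjusted p = 0.000915). These 2 light chains were higher in both Smad4 KO libraries, whereas Slc7a5 and Slc7a11 were lower. Slc7a5, which brings leucine and other large neutral amino acids into dividing cells, fell from 138 and 128 CPM to 85 and 85.9 CPM (-0.64 ± 0.06, adjusted p = 0.000436). Slc7a11, which imports cystine for glutathione synthesis, fell from 38.6 CPM in both WT libraries to 25.4 and 24.1 CPM (-0.64 ± 0.08, adjusted p = 0.00193). Slc7a6 was at 32.2 and 33.3 CPM against 31.5 and 34.8 CPM and did not pass (adjusted p = 0.94).

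As a share of the summed CPM per kb of these 5 light chains, Slc7a5 made up 54.1 and 52.9% in WT, 29.3 and 28.1% in Smad4 KO and 27.4 and 27.7% with TGFb. Slc7a7 made up 24.2 and 25.2% in WT, 47.1 and 49.8% in Smad4 KO and 51.6 and 53.9% with TGFb. The most abundant partner of Slc3a2 at the RNA level was therefore Slc7a5 in both WT libraries and Slc7a7 in the other 4. With the length of the longest coding transcript in place of all exons, Slc7a5 made up 47.6 and 46.3% in WT and 23.9 and 22.8% in Smad4 KO, and Slc7a7 made up 29.4 and 30.4% and 53.1 and 55.9%, so the order was the same. Slc7a7 and Slc7a8 lie on chromosome 14 (54369442 to 54417780 and 54722209 to 54781946, both on the minus strand, GRCm38).

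**Figure D2:**
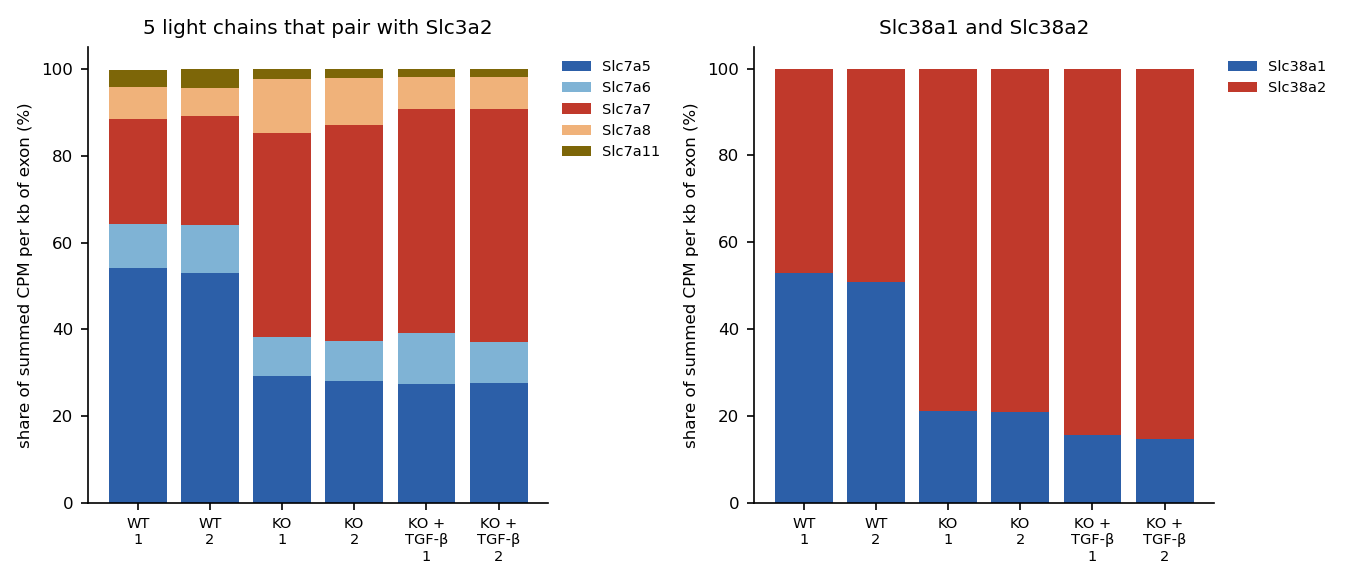
Share of the summed CPM per kb of exon, in percent, in each library. The left panel shows 5 light chains that pair with Slc3a2 and the right panel Slc38a1 with Slc38a2; Slc7a5 takes 54.1 and 52.9% in WT and 29.3 and 28.1% in Smad4 KO, and Slc38a1 takes 52.9 and 50.9% and 21.2 and 20.8%.

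In the Slc38 family 1 of 7 tested carriers passed as lower in Smad4 KO and 1 as higher. That is 28.6% called, near the 30.3% called over all genes tested. In the Slc1 family 3 of 5 tested carriers passed as lower and 0 as higher, which is 60% called. Slc38a1, a sodium-coupled glutamine carrier, was at 520 and 506 CPM in WT and 174 and 169 CPM in Smad4 KO. Its neighbour Slc38a2, a carrier of similar substrates that cells raise when amino acids run short, was at 237 and 250 CPM in WT and 331 and 330 CPM in Smad4 KO. The groups did not overlap for either gene, and the directions were opposite, with log2 fold changes of -1.58 ± 0.04 for Slc38a1 (adjusted p = 2.78e-06) and 0.44 ± 0.04 for Slc38a2 (adjusted p = 0.000489). The genes lie beside each other on chromosome 15 (96571418 to 96642913 and 96687392 to 96699730, both on the minus strand, GRCm38). Per kb, Slc38a1 made up 52.9 and 50.9% of the sum of both in WT and 21.2 and 20.8% in Smad4 KO. The lysosomal amino acid sensor Slc38a9 did not pass, at 21.6 and 18.8 CPM against 20.6 and 20.4 CPM (adjusted p = 0.916), nor did Slc38a6, Slc38a7 or Slc38a10.

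Slc1a5, the main glutamine carrier of many dividing cells, was at 320 and 312 CPM in WT and 192 and 206 CPM in Smad4 KO. Slc1a4 (ASCT1), which exchanges alanine, serine and cysteine, was at 167 and 173 CPM and at 71.5 and 74 CPM. The glutamate carrier Slc1a1 was at 38.2 and 42.6 CPM and at 15.4 and 17.3 CPM. All 3 fell without overlap between groups, by 0.67 on the log2 scale for Slc1a5 (SE 0.05, adjusted p = 0.000218), by 1.22 for Slc1a4 (SE 0.06, adjusted p = 3.06e-05) and by 1.3 for Slc1a1 (SE 0.16, adjusted p = 0.00169). Of the Slc1a1 exons 31.9% lie opposite the gene 4430402I18Rik, which did not exceed 2.01 CPM in any library. The arginine carriers Slc7a1 and Slc7a2 fell as well. Slc7a1 was at 249 and 256 CPM in WT and 197 and 194 CPM in Smad4 KO (-0.37 ± 0.05, adjusted p = 0.00248). Slc7a2 was at 26.8 and 13.1 CPM against 3.11 and 5.65 CPM (-2.19 ± 0.41, adjusted p = 0.00919), with a wide spread between the WT libraries, and its log2 fold change was -1.57 without WT replicate 1. Slc43a1, a facilitated carrier of large neutral amino acids, fell from 4.13 and 4.88 CPM to 0.687 and 1.14 CPM (-2.3 ± 0.4, adjusted p = 0.0068), and its relative Slc43a2 was at 26 and 18.9 CPM against 42.7 and 23 CPM (adjusted p = 0.212).

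The remaining Slc6 carriers serve osmolytes, creatine and transmitters. The taurine carrier Slc6a6 was at 220 and 230 CPM in WT and 518 and 486 CPM in Smad4 KO. The creatine carrier Slc6a8 was at 41.4 and 44.9 CPM and at 132 and 101 CPM, and the glycine carrier Slc6a9 at 27 and 27.1 CPM and at 46.7 and 57.3 CPM. In each gene both Smad4 KO libraries lay above both WT libraries. The log2 fold changes were 1.16 ± 0.04 (Slc6a6, adjusted p = 1.07e-05), 1.43 ± 0.14 (Slc6a8, adjusted p = 0.000559) and 0.94 ± 0.11 (Slc6a9, adjusted p = 0.00108). Of the Slc6a9 exons, 27.8% lie opposite Ccdc24, which did not exceed 9.05 CPM. The serotonin carrier Slc6a4 did not pass, at 23.2 and 21.8 CPM against 29.8 and 32.1 CPM (adjusted p = 0.0672). Slc6a7, a proline carrier known from brain, fell from 7.68 and 7.67 CPM to 3.54 CPM in both Smad4 KO libraries (-1.12 ± 0.18, adjusted p = 0.00452). The dopamine carrier Slc6a3, named after its values were seen, rose from 0.401 and 0.593 CPM to 4.43 and 4.63 CPM (3.19 ± 0.37, adjusted p = 0.00124), and its WT level rests on 21 and 26 units. Summed over the 21 genes of the family, Slc6 went from 377 and 387 CPM to 999 and 936 CPM, while Slc1 went from 537 and 539 CPM to 292 and 314 CPM and Slc7 stood at 599 and 581 CPM and at 597 and 601 CPM.

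Monocarboxylate carriers of the Slc16 family were lower or did not pass. Slc16a1, a carrier of lactate, pyruvate and short fatty acids, was at 229 CPM in both WT libraries and 177 and 172 CPM in Smad4 KO (-0.39 ± 0.04, adjusted p = 0.000952). Slc16a6 was at 77.1 and 73 CPM against 36.9 and 35.6 CPM (-1.05 ± 0.08, adjusted p = 0.000207). Slc16a12, which carries creatine, was at 43 and 44.4 CPM against 25.5 and 26.5 CPM (-0.75 ± 0.08, adjusted p = 0.000791). In these 3 genes both Smad4 KO libraries lay below both WT libraries, although 21.5% of Slc16a6 exons lie opposite Amz2, which fell from 56.4 and 60.1 CPM to 46.2 and 37.2 CPM (adjusted p = 0.0251). The lactate exporter Slc16a3 was at 263 and 254 CPM against 204 and 255 CPM and did not pass (adjusted p = 0.288). Slc16a10, which releases aromatic amino acids on the blood side, was at 44.7 and 40.3 CPM against 54 and 46.9 CPM (adjusted p = 0.12). Of 13 tested members of this family 3 fell and 0 rose. That is 23.1% called, below the 30.3% called over all genes tested. The proton-coupled carrier Slc36a1 did not pass, at 7.26 and 18.4 CPM against 9.6 and 8.15 CPM (adjusted p = 0.538).

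The promoters of 78 of the 107 carriers were found in RefSeq (GRCm38.p6), as 101 windows from 250 bases before to 50 bases after an annotated start, and 6 motifs were searched in them on both strands. The amino acid response element, written here as TGATGCAA, is bound by ATF4 with C/EBP partners when amino acids are scarce. It occurred in 4 of the 101 carrier windows (3.96%) and in 0.895% of all 32851 windows of this length. The windows belong to Slc1a4, to Slc7a11, where it occurs at 2 places facing each other, and to Slc7a7, where 2 overlapping windows hold the same site. An HNF4 motif, CAAAGTCCA, occurred in 1 carrier window (0.99%), that of Slc3a1, and in 0.475% of all windows. These windows are shown because Slc1a4 and Slc7a11 fell in Smad4 KO while Slc7a7 and Slc3a1 rose. Capitals mark the amino acid response element, or in Slc3a1 the HNF4 motif, and each window is written 5′ to 3′ on the strand of its gene.
Slc1a4 (chr11:20332664-20332963, minus strand): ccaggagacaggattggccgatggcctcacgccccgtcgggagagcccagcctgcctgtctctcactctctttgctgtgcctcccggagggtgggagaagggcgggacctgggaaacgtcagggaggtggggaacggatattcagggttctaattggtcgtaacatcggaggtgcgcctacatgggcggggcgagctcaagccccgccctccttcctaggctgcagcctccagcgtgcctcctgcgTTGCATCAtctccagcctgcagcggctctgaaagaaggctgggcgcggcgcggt
Slc7a11 (chr3:50443564-50443863, minus strand): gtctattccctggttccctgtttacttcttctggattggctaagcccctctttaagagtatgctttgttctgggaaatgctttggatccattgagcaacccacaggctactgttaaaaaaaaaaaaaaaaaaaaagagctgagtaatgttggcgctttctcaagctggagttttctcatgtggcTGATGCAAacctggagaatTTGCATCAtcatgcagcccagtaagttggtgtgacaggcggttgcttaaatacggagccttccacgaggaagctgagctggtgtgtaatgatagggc
Slc7a7 (chr14:54417895-54418194, minus strand): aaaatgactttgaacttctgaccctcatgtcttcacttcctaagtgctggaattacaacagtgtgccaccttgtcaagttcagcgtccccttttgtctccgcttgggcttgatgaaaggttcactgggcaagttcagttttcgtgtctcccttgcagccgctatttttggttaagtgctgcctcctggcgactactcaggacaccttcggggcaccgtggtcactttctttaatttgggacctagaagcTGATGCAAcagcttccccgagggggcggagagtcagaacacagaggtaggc
Slc3a1 (chr17:85028097-85028396, plus strand): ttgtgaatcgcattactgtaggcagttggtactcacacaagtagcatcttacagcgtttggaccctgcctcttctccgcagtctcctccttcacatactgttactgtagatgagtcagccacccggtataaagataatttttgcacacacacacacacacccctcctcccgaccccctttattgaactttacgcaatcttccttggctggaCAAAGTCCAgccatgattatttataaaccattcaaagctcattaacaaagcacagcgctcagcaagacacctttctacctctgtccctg

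The motif begins at position -4 from the annotated start in Slc1a4, at -66 and -47 in Slc7a11 and at -1 in Slc7a7, and the HNF4 motif begins at -39 in Slc3a1. The amino acid response element was thus found in Slc1a4 and Slc7a11, which fell in Smad4 KO, and in Slc7a7, which rose. Its part in these changes was not tested. The E-box CACGTG was found in 11.88% of carrier windows and 7.15% of all, and the TEAD motif GGAATG in 13.86% and 14.663%. The SMAD palindrome GTCTAGAC was in no carrier window and in 0.213% of all, and the HNF1 palindrome was in no carrier window and in 0.009% of all. CACGTG and GTCTAGAC read the same on both strands, the other motifs were counted on either strand, and none of them overlapped another in the windows shown. A match describes letters in a window and no binding was measured.

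TGFb-treated Smad4 KO organoids were then compared with untreated Smad4 KO, which sets TGFb treatment against none within this genotype. Any difference in feeding or culture time cannot be told apart from TGFb here. Among sugar carriers Slc2a5 fell 2.71-fold, Slc2a2 2.3-fold and Slc5a1 2.06-fold. Slc6a19 fell 2.14-fold and Slc6a20a 1.8-fold, while Slc6a6, Slc6a8 and Slc7a9, which had also been higher in Smad4 KO than in WT, did not pass. Slc38a2, the glycine carrier Slc6a9 and the inositol carrier Slc5a3 rose. Of the 76 carriers tested, 6 passed as higher and 22 as lower, and 48 did not pass. That is 36.8% called, where 16.3% of all genes tested were called, 7.78% as higher and 8.48% as lower. The median log2 fold change of the tested carriers was -0.26, against -0.01 over all genes. Enterocyte markers other than carriers moved again, with 14 of 15 lower, none higher and a summed 10900 to 11000 CPM in the treated libraries. Of the 8 crypt base and proliferation markers 4 fell and the list summed to 2570 to 2580 CPM. The part of these shifts in the carrier results was not tested. This comparison and the one of Smad4 KO with WT share the Smad4 KO libraries, and their values are given side by side.

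**Figure D3:**
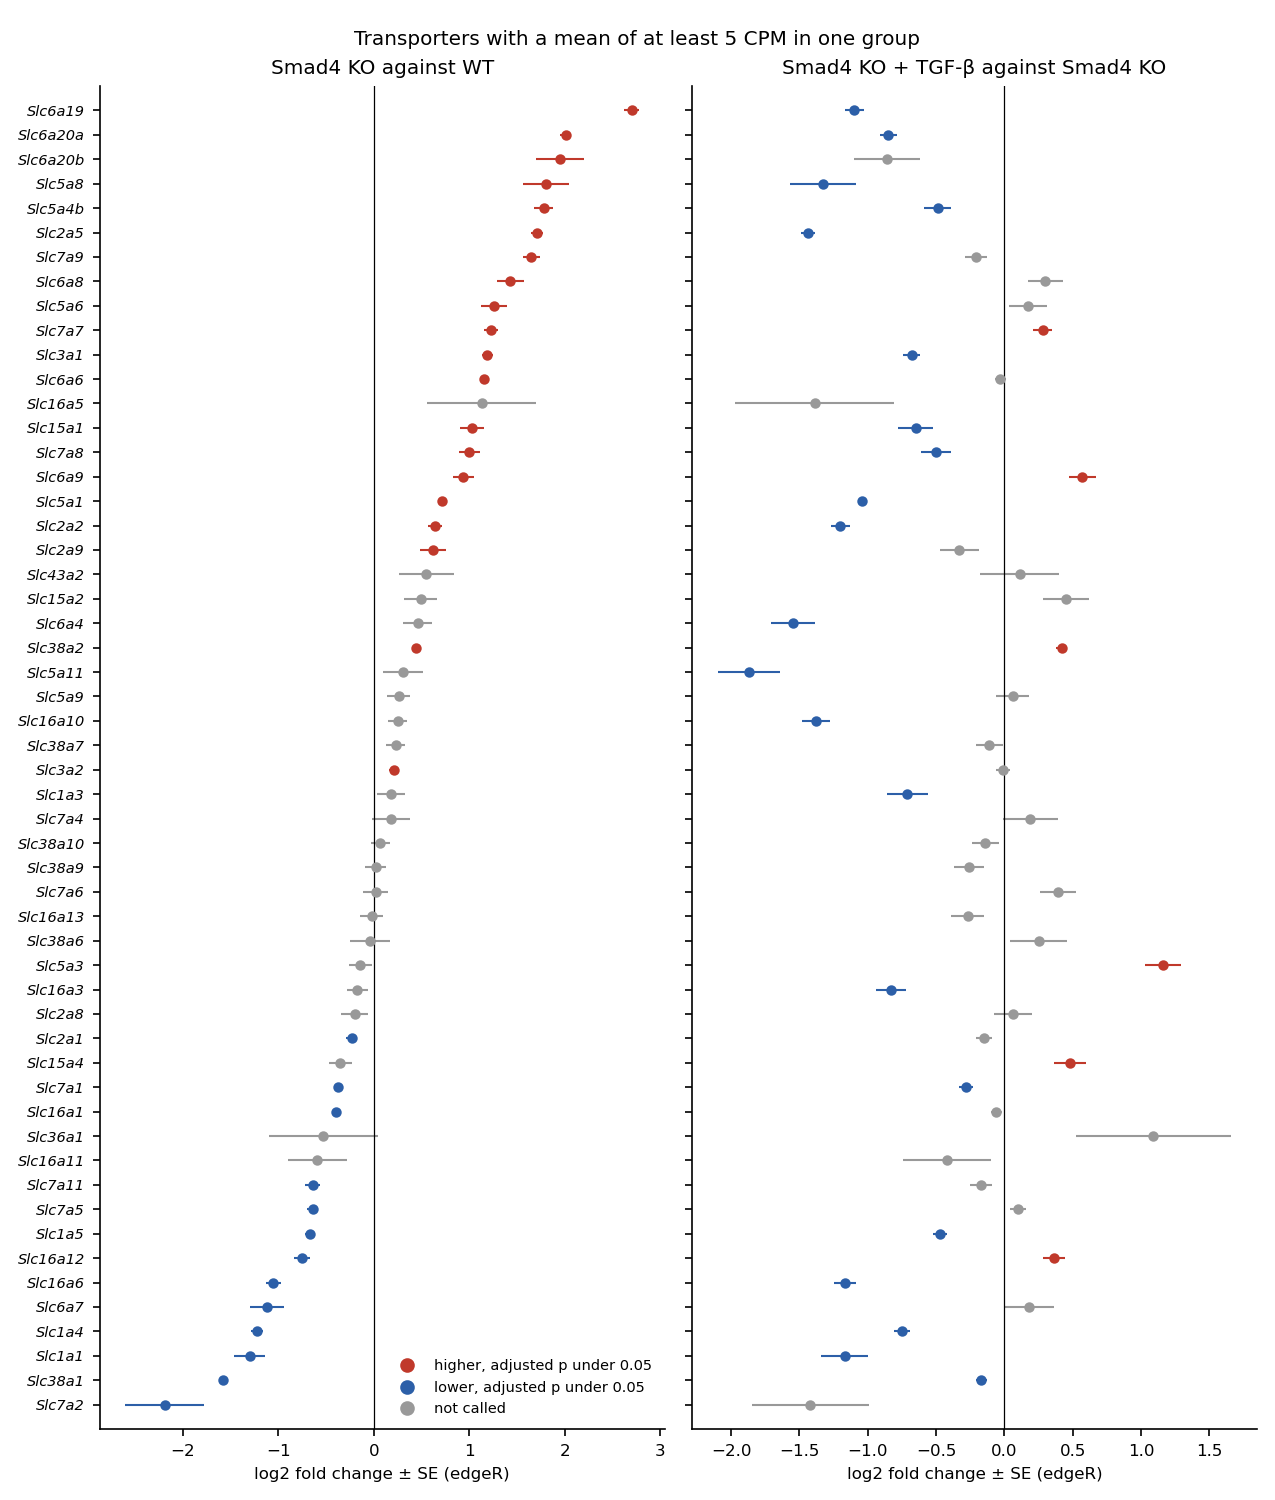
log2 fold change ± SE from edgeR for the 54 tested carriers that reached a mean of 5 CPM in a group, sorted by the left panel; red and blue points passed as higher or lower at an adjusted p under 0.05 and grey points did not. The left panel compares Smad4 KO with WT, from 2.7 for Slc6a19 to -2.19 for Slc7a2, and the right panel treated with untreated Smad4 KO, from 1.16 for Slc5a3 to -1.87 for Slc5a11.

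Slc5a1 stood at 448 and 460 CPM with TGFb, Slc2a5 at 65.8 and 69 CPM and Slc2a2 at 44.1 and 44.5 CPM. For these 3 sugar carriers both treated libraries lay below both untreated ones. The log2 fold changes were -1.04 ± 0.03 for Slc5a1 (adjusted p = 1.48e-05), -1.44 ± 0.05 for Slc2a5 (adjusted p = 3.56e-05) and -1.2 ± 0.07 for Slc2a2 (adjusted p = 0.000179). Slc2a7, named after its values were seen, stood at 0.995 and 0.479 CPM and fell 5.17-fold (-2.37 ± 0.39, adjusted p = 0.00897), on 43 and 21 units, and its log2 fold change was -2.99 without treated replicate 1. Slc2a1 was at 119 and 113 CPM and did not pass (adjusted p = 0.14). Slc5a4b fell to 24.6 and 25.6 CPM (-0.49 ± 0.1, adjusted p = 0.0171) and Slc5a8 to 2.11 and 2.19 CPM (-1.33 ± 0.24, adjusted p = 0.0121). The vitamin carrier Slc5a6 was at 33.2 and 35.9 CPM and did not pass (adjusted p = 0.491).

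The inositol carriers parted under TGFb. Slc5a3 was at 19.5 and 16.3 CPM in untreated and 38.2 and 41.6 CPM in treated Smad4 KO, whereas Slc5a11 was at 9.26 and 10.4 CPM and at 3.05 and 2.33 CPM. Both genes carry inositol with sodium, and the groups did not overlap for either. The log2 fold changes were 1.16 ± 0.13 for Slc5a3 (adjusted p = 0.00175) and -1.87 ± 0.23 for Slc5a11 (adjusted p = 0.00275). Slc5a3 lies within the Mrps6 locus on the same strand and shares 1.5% of its exon bases with it, and Mrps6 rose as well, from 31.4 and 28.3 CPM to 55.1 and 59.7 CPM (0.94, adjusted p = 0.00145). Whether reads of these genes were divided correctly was not tested.

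Among the brush border amino acid carriers, Slc6a19 stood at 45.5 and 44.7 CPM with TGFb and Slc6a20a at 86.8 and 83.4 CPM. Both fell in each treated library relative to each untreated one (-1.1 ± 0.07, adjusted p = 0.000211, and -0.85 ± 0.06, adjusted p = 0.000254). Slc6a20b was at 3.77 and 4.61 CPM and did not pass (adjusted p = 0.0584). The cystine exchanger parted into its subunits: the heavy chain Slc3a1 fell to 79.8 and 79.7 CPM (-0.68 ± 0.06, adjusted p = 0.000538), while the light chain Slc7a9 was at 57.8 and 54.1 CPM (-0.21 ± 0.08, adjusted p = 0.157). Per kb Slc7a9 then stood at 0.615 and 0.576 times Slc3a1, above the 4 other libraries. The gene opposite Slc3a1, Prepl, also fell, to 50.8 and 50.7 CPM (adjusted p = 0.0239). The peptide carrier Slc15a1 fell to 14.5 and 15.5 CPM (-0.65 ± 0.13, adjusted p = 0.0181), and the lysosomal Slc15a4 rose to 21.7 and 24.1 CPM (0.48 ± 0.12, adjusted p = 0.0427).

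On the blood side Slc7a7 stood at 156 and 159 CPM with TGFb and passed as higher (0.28 ± 0.07, adjusted p = 0.0312), and Slc7a8 fell to 33.9 and 32.7 CPM (-0.5 ± 0.11, adjusted p = 0.0243). The aromatic amino acid carrier Slc16a10 fell 2.6-fold, to 19.9 and 18.9 CPM (-1.38 ± 0.1, adjusted p = 0.000418). So Slc7a7 was higher, while Slc7a8 and Slc16a10 were lower, in both treated libraries. The calls of Slc7a7 and Slc7a8 were lost in some fits that left out a library. The facilitated carrier Slc43a2 was at 35.4 and 35.6 CPM with TGFb and did not pass (adjusted p = 0.856). Slc3a2 was at 146 and 144 CPM (adjusted p = 0.905), Slc7a5 at 92.2 and 91.5 CPM (adjusted p = 0.292), Slc7a6 at 48.9 and 37.7 CPM (adjusted p = 0.111) and Slc7a11 at 22.3 and 21.7 CPM (adjusted p = 0.241). None of these 4 passed. The taurine carrier Slc6a6 was at 492 CPM in both treated libraries (-0.03 ± 0.04, adjusted p = 0.724), and Slc6a8 at 153 and 134 CPM (adjusted p = 0.195). The glycine carrier Slc6a9 rose to 77.5 and 76.4 CPM (0.57 ± 0.1, adjusted p = 0.0137). The serotonin carrier Slc6a4 fell to 12.2 and 9.01 CPM (-1.55 ± 0.16, adjusted p = 0.00139).

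Carriers that were lower in Smad4 KO than in WT were in several cases lower again with TGFb. Slc1a5 stood at 146 and 142 CPM, Slc1a4 at 44.7 and 42 CPM and Slc1a1 at 6.15 and 8.34 CPM. Each was below both untreated libraries, with log2 fold changes of -0.47 ± 0.05 for Slc1a5 (adjusted p = 0.00169), -0.75 ± 0.06 for Slc1a4 (adjusted p = 0.000495) and -1.17 ± 0.17 for Slc1a1 (adjusted p = 0.00512). The astrocyte type glutamate carrier Slc1a3, named after its values were seen, had not passed between Smad4 KO and WT (0.18 ± 0.15, adjusted p = 0.403). With TGFb Slc1a3 fell from 12.2 and 13.8 CPM to 7.29 and 8.66 CPM (-0.71 ± 0.15, adjusted p = 0.0226). Slc7a1 fell to 155 and 167 CPM (-0.28 ± 0.05, adjusted p = 0.0123). Slc38a1 passed by a small margin at 155 and 149 CPM (-0.17 ± 0.04, adjusted p = 0.038), while Slc38a2 rose to 433 and 448 CPM (0.42 ± 0.04, adjusted p = 0.00116). Slc38a1 then made up 15.5 and 14.6% of the pair per kb. Slc7a2 was at 1.67 and 1.6 CPM (adjusted p = 0.0767) and Slc43a1 at 0.37 and 0.57 CPM (adjusted p = 0.193), and neither passed.

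In the monocarboxylate family the lactate exporter Slc16a3 fell to 136 and 123 CPM (-0.83 ± 0.11, adjusted p = 0.00382) and Slc16a6 to 16.7 and 15.5 CPM (-1.17 ± 0.08, adjusted p = 0.000268). The creatine carrier Slc16a12 rose to 34 and 32.8 CPM (0.36 ± 0.08, adjusted p = 0.0244). The treated libraries of all 3 lay outside the range of the untreated ones. Slc16a1 was at 165 and 169 CPM and did not pass (adjusted p = 0.387). Slc36a1 was at 27.8 and 10.1 CPM (adjusted p = 0.268), and the difference between those replicates exceeded the one between the groups.

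Treated Smad4 KO and WT, which differ in both genotype and TGFb, were compared last. Of the 76 tested carriers 18 passed as higher, 25 as lower and 33 did not pass. That is 56.6% called, where 39.7% of all genes tested were called, 20.7% as higher and 19% as lower. Of all genes called 52.3% were higher, but 44% under upper-quartile scaling (2783 higher and 3546 lower), with 17 carriers higher and 26 lower. The median log2 fold change of the tested carriers was 0.03, against -0.02 over all genes. This comparison shares its libraries with both others, and its values are given for the position of treated organoids relative to WT. The glucose carriers Slc5a1 (-0.33 ± 0.03, adjusted p = 0.000296) and Slc2a2 (-0.56 ± 0.07, adjusted p = 0.00148) were below WT, and so was Slc2a1 (-0.37 ± 0.06, adjusted p = 0.00249). The fructose carrier Slc2a5 was slightly above it (0.28 ± 0.05, adjusted p = 0.00796), and Slc15a1 did not pass (0.38 ± 0.13, adjusted p = 0.0582). Of enterocyte markers other than carriers 9 of 15 were higher than in WT and 4 lower, and all 8 crypt base and proliferation markers were lower. The part of these shifts was not tested.

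Several amino acid carriers in treated organoids differed from WT. Slc6a19 was 3.03-fold, Slc7a7 2.87-fold, Slc7a9 2.72-fold, Slc6a20a 2.23-fold and Slc6a6 2.18-fold above WT (adjusted p of 1.7e-05, 1.49e-05, 4.92e-05, 2.46e-05 and 7.95e-06). Slc6a8 was 3.33-fold and Slc6a9 2.84-fold above WT (adjusted p = 0.000159 and 9.74e-05). In these carriers both treated libraries lay above both WT libraries, which only describes the values. The rule for named genes asked for this in some of them, and the share of all genes without overlap is not given. Slc1a1 was 5.57-fold, Slc1a4 3.92-fold, Slc38a1 3.37-fold and Slc1a5 2.2-fold below WT (adjusted p of 8.75e-05, 3.69e-06, 1.46e-06 and 1.56e-05). Slc7a2 was 12.2-fold and Slc43a1 9.52-fold below WT (adjusted p = 0.00114 and 0.00141), both on few units in the treated libraries. Without WT replicate 1 the log2 fold change of Slc7a2 went from -3.61 to -3.0. Slc16a6 was 4.66-fold and Slc16a10 2.19-fold below WT (adjusted p = 6.68e-06 and 0.000312), and Slc6a4 was 2.12-fold below (adjusted p = 0.0022). Slc5a4a, a relative of Slc5a1, was at 1.3 and 0.274 CPM in WT organoids, against 0.255 and 0.0991 CPM in untreated Smad4 KO organoids and 0 in both treated libraries. That is at least 5.71-fold below the WT mean against a floor of 3 fragments, taken as 12 units over the group (adjusted p = 0.0219). The WT mean of 0.786 CPM rests mostly on WT replicate 1, so the fold would be smaller against WT replicate 2. The floor covers counting error only.

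**Figure D4:**
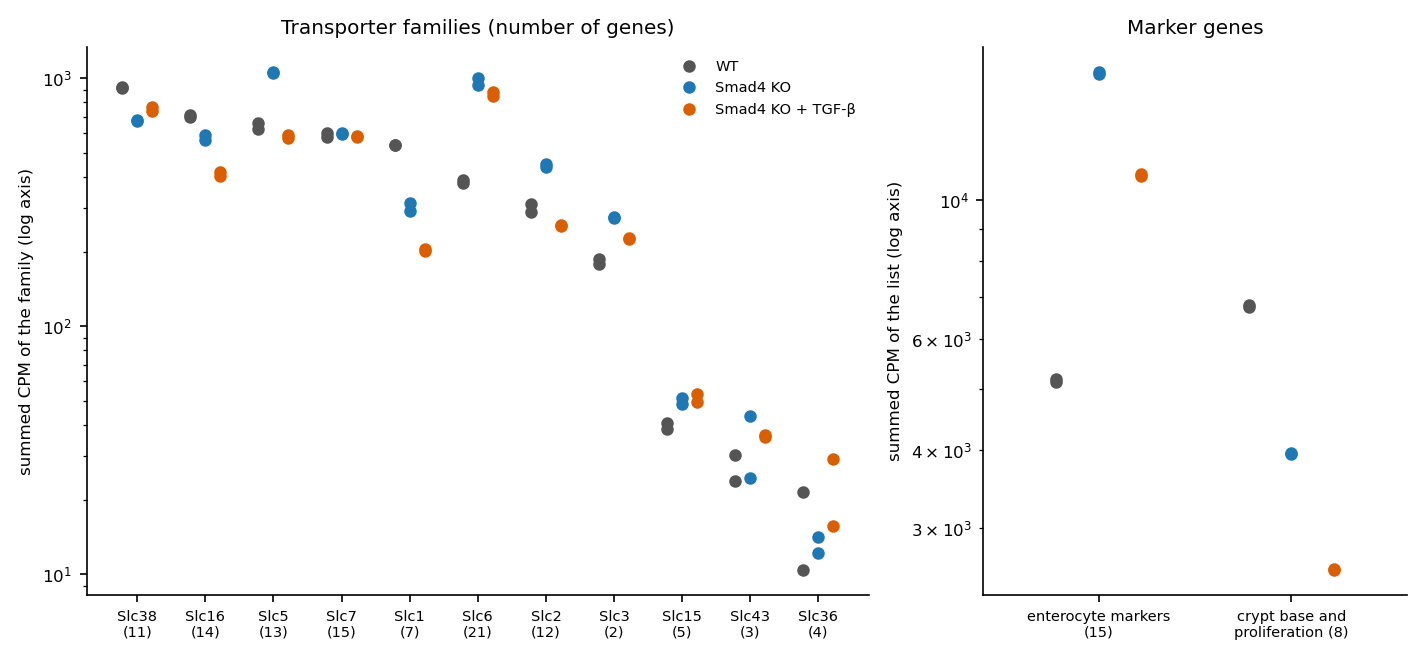
Summed CPM of each carrier family, with its number of genes, in each library on a log axis (left), and of enterocyte and of crypt base and proliferation markers (right, with its own log axis). Slc6 goes from 377 and 387 CPM in WT to 999 and 936 CPM in Smad4 KO and 878 and 851 CPM with TGFb, and Slc1 from 537 and 539 to 292 and 314 and 205 and 202 CPM.

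Family sums set these shifts side by side, as levels in CPM. Slc5 stood at 658 and 626 CPM in WT organoids, against 1050 and 1060 CPM in untreated Smad4 KO organoids and 572 and 592 CPM with TGFb, most of it Slc5a1. Slc2 stood at 310 and 289, 452 and 440, and 255 and 254 CPM in the same order, and Slc16 at 710 and 699, 566 and 592, and 419 and 405 CPM. The sugar families were thus highest in Smad4 KO, Slc16 was highest in WT, and Slc6 was above WT in both Smad4 KO groups. All carriers together summed to 4370 and 4310 CPM in WT organoids, against 5010 and 4990 CPM in untreated Smad4 KO organoids and 3990 and 3980 CPM with TGFb.

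Genes that work with the carriers were counted from the same fit. Beside the counts of this and the next lists, 16.9% of all genes tested were higher and 13.4% lower in Smad4 KO than in WT. With TGFb against untreated Smad4 KO the shares were 7.78% higher and 8.48% lower. Of 16 partner proteins and drivers of transport, 10 were higher and 2 lower in Smad4 KO than in WT. The sodium-proton exchanger Slc9a3, which supplies the protons for Slc15a1, was at 18 and 17.3, 49.9 and 51.3, and 36.1 and 42.7 CPM in WT, untreated Smad4 KO and treated Smad4 KO. Bsg, the chaperone of Slc16a1 and Slc16a3, fell from 1350 and 1100 CPM in WT to 729 and 895 CPM in Smad4 KO. With TGFb 2 of these 16 genes rose and 5 fell relative to untreated Smad4 KO. Among those that rose was the kinase gene Sgk1, at 7.92 and 7.66 CPM in untreated and 16.4 and 16.5 CPM in treated Smad4 KO.

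Of 13 digestive enzymes, some of which are also among the enterocyte markers above, 9 rose and 2 fell in Smad4 KO, and 12 fell and 0 rose with TGFb. Sucrase-isomaltase, Sis, which releases glucose and fructose, was at 1210 and 1220 CPM in WT organoids, against 2770 and 2760 CPM in untreated Smad4 KO organoids and 1180 and 1190 CPM with TGFb. The peptidase Enpep was at 37.8 and 40, 265 and 248, and 138 and 133 CPM, while the peptidase Dpp4 was at 86.3 and 80.8, 38.7 and 36.2, and 13.7 and 13.9 CPM. So peptidases did not move as a block between Smad4 KO and WT. Of 11 tested genes of the amino acid response, 6 fell and 1 rose in Smad4 KO, and 4 fell and 2 rose with TGFb. The asparagine synthetase gene Asns was at 242 CPM in both WT libraries, 158 and 151 CPM in Smad4 KO and 118 and 122 CPM with TGFb. Atf4 was at 174 and 271, 285 and 233, and 260 and 175 CPM and did not pass in any comparison.

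Of 14 transcriptional regulators, 9 were higher and 1, Myc, was lower in Smad4 KO than in WT, and 2 rose and 5 fell with TGFb. Hnf4g, a nuclear receptor of absorptive cells, was at 68.8 and 69 CPM in WT organoids, against 215 and 227 CPM in untreated Smad4 KO organoids and 117 and 113 CPM with TGFb (log2 fold changes of 1.68 and then -0.94). Its relative Hnf4a was at 903 and 898, 1020 and 1000, and 987 and 988 CPM, a small rise of 0.17 in Smad4 KO. Mlxipl, a factor that responds to sugar, was at 216 CPM in both WT libraries, 289 and 276 CPM in Smad4 KO and 164 and 172 CPM with TGFb. These genes were counted because they are known to act on carriers, and no link between them and a carrier was tested.

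Replicates differed most where levels were low or modest. In Smad4 KO Slc16a5 was at 26.6 and 7.81 CPM, against 7.83 and 7.87 CPM in WT, and did not pass (adjusted p = 0.191). Slc36a4 was at 3.13 and 3.06 CPM in WT organoids, against 4.63 and 4.06 CPM in untreated Smad4 KO organoids and 1.27 and 5.52 CPM with TGFb, so its treated libraries lay on either side of WT. Neither these genes nor Slc36a1 and Slc43a2 passed in any of the 3 comparisons. A further 15 carriers were above 0 somewhere but too low to test, with no library above 0.477 CPM, among them the broad amino acid carrier Slc6a14, the kidney glucose carrier Slc5a2 and the lactate carrier Slc5a12. The 16 carriers at 0 in every library included the neuronal carriers Slc6a2, Slc6a15 and Slc6a17, the kidney amino acid carriers Slc6a18 and Slc7a13, and Slc2a3.

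Some calls rested on single libraries or settings. For Smad4 KO against WT, 32 of 35 calls held in all 14 alternatives run per comparison. Leaving out WT replicate 1 ended the call of Slc2a1 (adjusted p = 0.121), and so did leaving out Smad4 KO replicate 1 (0.0826) or Smad4 KO replicate 2 (0.0846). Slc2a9 was lost on leaving out WT replicate 1 (adjusted p = 0.0513), WT replicate 2 (0.0864) or Smad4 KO replicate 1 (0.0836). Slc3a2 lost its call in 7 alternatives (adjusted p of 0.0517 to 0.121), namely with 0.1 under upper-quartile scaling, 0.0517 with the replicate block, 0.121 when WT replicate 1 was left out, 0.0847 and 0.102 for Smad4 KO replicate 1 or 2, and 0.0557 and 0.0547 for treated replicate 1 or 2. These are small or modest differences, and none of the folds above 2 in this comparison was lost.

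For treated against untreated Smad4 KO, 17 of 28 calls held in all alternatives. Slc38a1 lost its call in 9 (adjusted p of 0.0512 to 0.166) and Slc15a4 in 7 (0.0607 to 0.19). Without any 1 of the 4 libraries compared, Slc15a1 (adjusted p of 0.0589 to 0.103), Slc5a4b (0.0673 to 0.0974), Slc7a8 (0.0584 to 0.12) and Slc16a12 (0.0766 to 0.115) did not pass. With the replicate block Slc16a12 (adjusted p = 0.0505) and Slc38a1 (0.0512) did not pass either. Slc7a7 was lost without WT replicate 1 (adjusted p = 0.0589), WT replicate 2 (0.0535), Smad4 KO replicate 1 (0.109), treated replicate 1 (0.112) and treated replicate 2 (0.154). Slc6a9 was lost without treated replicate 1 (adjusted p = 0.0696) or 2 (0.0643), and Slc7a1 without Smad4 KO replicate 1 (0.0605) or treated replicate 1 (0.069). Slc1a3 was lost without Smad4 KO replicate 1 (adjusted p = 0.0519) or 2 (0.103) or treated replicate 1 (0.117), and Slc5a8 without Smad4 KO replicate 2 (0.0691) or treated replicate 1 (0.0642) or 2 (0.0582). The carriers called higher numbered 2 without treated replicate 1 and 3 without treated replicate 2, against 6 in the full fit. Slc5a3 and Slc38a2 were the calls higher that held in all alternatives.

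For treated Smad4 KO against WT, 34 of 43 calls held in all alternatives. Slc2a5 was lost without treated replicate 2 (adjusted p = 0.0531), and Slc7a8 without WT replicate 2 (0.0518) or treated replicate 1 (0.0514). Slc6a20b was lost without WT replicate 2 (adjusted p = 0.0567) or treated replicate 2 (0.0659), and Slc16a12 without the same libraries (0.0501 and 0.0527). Slc5a4a was lost with limma-voom (adjusted p = 0.0539) and without WT replicate 1 (0.143), treated replicate 1 (0.074) or treated replicate 2 (0.0747). Slc3a2 was lost under upper-quartile scaling (adjusted p = 0.127), with the replicate block (0.0508) and without WT replicate 1 (0.129), treated replicate 1 (0.12) or treated replicate 2 (0.0996). Slc1a3, which had fallen by 0.52, was lost without WT replicate 1 (adjusted p = 0.112), WT replicate 2 (0.095) or treated replicate 1 (0.156). The low monocarboxylate carriers Slc16a4 (adjusted p of 0.0617 to 0.168) and Slc16a11 (0.0728 to 0.188) were lost without any 1 of the 4 libraries compared, and Slc16a4 also with the replicate block (0.0627). Slc15a2, named after its values were seen, went from 7.93 and 6.02 CPM in WT to 13.3 and 13.6 CPM in the treated libraries. Its call held in all alternatives (0.95 ± 0.17, adjusted p = 0.0055).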

How the data were processed

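Per the labels, total RNA of 6 organoid libraries was primed with random hexamers. The authors deposited 1 table of estimated counts per gene as whole numbers. The submitters' processing notes name StringTie 1.3.3b, SAMtools 1.9, HISAT2 2.1.0, FastQC 0.11.9 and build GRCm38, also called mm10, with no role for each. Not given in the sources used here are the annotation release, the strand setting and the counting step. Of values from 1 to 24, 42.3% are multiples of 4, so about 4 units per fragment are inferred. Estimated counts can divide fragments between overlapping transcripts, and whether strand was used to part a gene from its antisense partner is not known. Slc15a3 was at 0 in every library although 28.1% of its exons lie opposite Tmem132a, which was at 26 to 39.7 CPM.

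Genes were filtered with filterByExpr (15503 left), scaled by TMM and tested with edgeR 4.0.16 (R 4.3.3), quasi-likelihood, two-sided, all 6 libraries, group as the only term, 3 residual degrees of freedom. A gene was called at an adjusted p under 0.05 (Benjamini-Hochberg over all genes tested). The fit was checked on simulated data. CPM are TMM-scaled, and exon lengths and positions come from GENCODE vM21 (GRCm38), whose release may differ from the authors'. The labels name no pairing of libraries with the same replicate number, and none was seen in the values. The carriers, the lists of other genes and the rule for named genes were chosen with earlier results of these data known. That rule takes a list of core intestinal and housekeeping carriers, the 5 highest and 5 lowest called fold changes per comparison with at least 5 CPM in the higher group and no overlap of libraries, called carriers at 0 in a group, and the most abundant carrier of each family. Statements that groups did not overlap therefore only describe the values, and the share of all genes without overlap is not given. Carriers named outside this rule, among them Slc15a2, Slc16a5 and Slc36a4, were named after their values were seen. Alternatives used DESeq2 1.42.0, limma-voom (limma 3.58.1), other scalings, no filter, a replicate block, values divided by 4, 4 libraries only and each library left out. Some genes of the list of partner proteins are counted but not reported here by name.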

Additional observations from a re-analysis of the deposited data

How the results depend on the processing

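The counts of carriers called higher or lower stayed within 1.5 times their full value in every alternative that kept all libraries, and so did the counts over all genes. Leaving out a library moved some counts further. Carriers higher with TGFb than in untreated Smad4 KO numbered 2 to 4 across the libraries left out, against 6, and were 2 without treated replicate 1 and 3 without treated replicate 2. Over all genes, those lower in Smad4 KO than in WT numbered 1166 to 1867, against 2084 (1166 and 1227 without WT replicate 1 or 2, 1387 without Smad4 KO replicate 1). Those higher with TGFb than in Smad4 KO numbered 656 to 1108, against 1206 (656 and 658 without treated replicate 1 or 2, 768 without Smad4 KO replicate 2). Those lower numbered 848 to 1196, against 1315 (848 and 876 without treated replicate 1 or 2, 869 and 862 without Smad4 KO replicate 1 or 2). The cause was not tested, and a group left with 1 library is assumed to vary like the others.

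With TGFb against WT, Slc36a4 went from a log2 fold change of 0.13 to -1.28 (adjusted p = 0.035) without treated replicate 2 and to 0.84 without treated replicate 1, and its treated libraries were at 1.27 and 5.52 CPM. With the replicate number as a block, 20 carriers were higher and 14 lower in Smad4 KO than in WT, 5 and 21 with TGFb against Smad4 KO, and 17 and 24 with TGFb against WT. Deviations of same-numbered libraries correlated at -0.033 to 0.031 over all genes tested, so no pairing was seen. Genes with low counts weigh as much as others in this check, so it cannot exclude a shared origin. The block left 4184, 2153 and 5667 genes called in the 3 comparisons. With 2 libraries per group, small folds and carriers under about 1 CPM were measured with low precision at this depth.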
